A study of Mus musculus with 12 samples.

Results

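The genes described here are 36 genes that mark fat cells or handle stored fat, measured in mouse skin by bulk RNA sequencing. They were listed by name, by a rule that uses no measured value, although earlier results of these data were known when the list was made: 4 adipokines and other secreted proteins, 4 coat proteins of the lipid droplet, 4 genes of lipolysis, 4 of fatty acid and glycerol transport, 7 of triglyceride assembly, 7 of fatty acid synthesis, 3 transcription factors, and 3 genes of glucose uptake and heat production. All 36 were found among the 53465 gene identifiers of each library, and 35 had enough reads to be tested among the 15126 genes tested in all. Ucp1, which uncouples respiration in brown fat, was the member left out.

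The 12 libraries came from 4 groups of 3, which cross 2 genotypes with 2 skin sites. WT mice carry Foxp3-WT. The altered genotype is written Foxp3-E2 in the sample labels, Foxp3-DE2 in the protocol and Foxp3dExon2 in the series title, and is called DE2 here, with the 3 spellings taken as 1 genotype. Foxp3 encodes the master regulator of regulatory T cells, which restrain immune responses. Each genotype was sampled as untreated skin and as skin from a shaved patch on the flank, 3 cm by 2 cm, after 6 doses of ultraviolet B (UVB). For each dose, 200 mJ/cm2 stands in the labels of the samples but 100 mJ/cm2 in the treatment protocol, and the 2 statements were not reconciled here. The sources used here give no strain, age or sex, and do not say whether the untreated site was shaved. Replicate numbers follow the order of deposit and pair no libraries. Which libraries share an animal is not stated, so the p-values measure the spread between libraries, which may be partly technical.

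White fat lies under the dermis of mouse skin as a layer of its own, and its thickness follows the hair cycle. A fat cell takes up fatty acids that lipoprotein lipase releases from circulating lipoproteins, or makes them from glucose. It joins them to glycerol as triglyceride in a droplet coated with perilipins, and releases them again through a chain of lipases. PPARG and CEBPA are the transcription factors that set up this program. Several of the same genes serve other skin cells: muscle fibres, which form a sheet beneath mouse skin, also take up glucose and burn fatty acids, and sebaceous glands and keratinocytes also make lipid.

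Levels are given as CPM, here the deposited counts scaled to a common library total corrected for composition (TMM scaling). Values of 3 libraries are listed in the order of replicates 1, 2 and 3. Differences are log2 fold changes ± an approximate standard error from edgeR's quasi-likelihood fit to all 12 libraries. A gene passed when its Benjamini-Hochberg adjusted p, over all genes tested, was under 0.05. The 4 simple comparisons were UVB against untreated skin within each genotype and DE2 against WT at each site. The fifth, the interaction, is the UVB change in DE2 minus that in WT. These comparisons share groups, so the fall with UVB in DE2 and the excess in untreated DE2 skin rest in part on the same 3 untreated DE2 libraries.

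The promoters of 5 members are shown because they bear the sequence motifs tied to this program in textbooks. AGGTCA is the hexamer that nuclear receptors such as PPARG recognise, and CCAAT is the box bound by NF-Y. RefSeq promoters on GRCm38.p6 were held for 27 of the 36 members. Each sequence below is the 250 bases before the start of the gene, 5′ to 3′ on the gene's own strand, and capitals mark AGGTCA or CCAAT on either strand, which appear as TGACCT or ATTGG where the motif lies on the other strand. Cd36, Aqp7 and Lpin1 are the members with AGGTCA among the 5 of these 27 that were higher in untreated DE2 skin. They are also the 3 with it among the 14 of these 27 that fell with UVB in DE2. The other members with AGGTCA were Acly, Elovl6, Pparg and Ucp1, none of which passed in a comparison. Adipoq is the defining adipocyte gene, and Fasn is a lipogenic gene that passed in no comparison. The windows are Cd36 at chr5:17835897-17836146, minus strand, Aqp7 at chr4:41048137-41048386, minus strand, Lpin1 at chr12:16610967-16611216, minus strand, Adipoq at chr16:23146286-23146535, plus strand, and Fasn at chr11:120824548-120824797, minus strand.
Cd36: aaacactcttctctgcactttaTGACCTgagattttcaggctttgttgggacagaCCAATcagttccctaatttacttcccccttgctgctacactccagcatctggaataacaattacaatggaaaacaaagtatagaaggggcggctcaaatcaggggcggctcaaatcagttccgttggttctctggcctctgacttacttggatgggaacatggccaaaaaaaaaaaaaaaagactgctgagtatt
Aqp7: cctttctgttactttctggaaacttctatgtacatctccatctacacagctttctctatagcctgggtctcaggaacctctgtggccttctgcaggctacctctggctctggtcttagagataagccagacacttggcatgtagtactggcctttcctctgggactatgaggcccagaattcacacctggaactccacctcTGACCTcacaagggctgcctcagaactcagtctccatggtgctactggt
Lpin1: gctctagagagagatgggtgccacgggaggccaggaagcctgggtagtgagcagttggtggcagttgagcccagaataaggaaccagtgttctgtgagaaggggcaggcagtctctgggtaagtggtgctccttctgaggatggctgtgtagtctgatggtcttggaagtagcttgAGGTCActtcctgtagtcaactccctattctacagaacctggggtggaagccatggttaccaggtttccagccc
Adipoq: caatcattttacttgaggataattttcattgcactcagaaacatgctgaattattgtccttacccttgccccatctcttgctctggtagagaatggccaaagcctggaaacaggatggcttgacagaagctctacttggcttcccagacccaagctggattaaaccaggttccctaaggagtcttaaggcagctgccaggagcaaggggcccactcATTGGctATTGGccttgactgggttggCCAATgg
Fasn: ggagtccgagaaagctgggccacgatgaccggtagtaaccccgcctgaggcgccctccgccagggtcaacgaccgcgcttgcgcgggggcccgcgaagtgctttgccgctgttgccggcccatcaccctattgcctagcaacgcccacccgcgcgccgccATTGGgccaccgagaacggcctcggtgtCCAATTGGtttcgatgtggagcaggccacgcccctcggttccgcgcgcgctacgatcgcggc

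On the strand shown, the AGGTCA match begins 49 bases before the start in Aqp7, 74 in Lpin1 and 228 in Cd36. On both strands it was present in 7 of the 27 member windows (25.9%) and in 13.8% of the 27025 windows of this length in the table. CCAAT was present in 8 of the 27 (29.6%) and in 34.5% of all windows, and 3 copies lay in each of the Adipoq and Fasn windows. The E-box CACGTG was present in 2 (7.41%), against 6.05% of all windows. The string TTGCNNCAA was present in 1 (3.7%), against 1.78%. C/EBP sites themselves were not searched for. The sterol response motif TCACNCCAC was in 0 of the 27, against 1.04% of all windows. A match describes the letters only. The Cd36 window lies inside the annotated span of the gene.

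Total counts ranged from 2809142 to 4741726 per library. On the leading principal component, with 39.7% of the variance, untreated DE2 lay between 102 and 135 and the other 9 libraries between -73.7 and -11. The skeletal muscle markers took 7.79, 12.7 and 13.9% of all counts in untreated DE2 skin, against 3.90 to 4.85% in untreated WT, 1.81 to 7.35% in irradiated WT and 3.19 to 3.94% in irradiated DE2. Of 26 muscle markers tested, 22 were higher in untreated DE2 than in untreated WT, 84.6% against 11.8% of all genes. With UVB in DE2, 24 fell, 92.3% against 13.4%. Hair follicle markers went the other way: all 15 tested were lower in untreated DE2 and all 15 rose with UVB there. Of all genes, 11.2% and 14.4% did so. They took 0.0128 to 0.0767% of counts in untreated DE2, with Shh at 0 counts, and 0.931 to 2.90% in the other 9 libraries. Those shares do not overlap between untreated DE2 and the rest, so a difference of the untreated DE2 group and a difference in hair follicle state cannot be told apart.

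Counts of the defining adipocyte genes were looked up in each library. Adipoq, Cfd, Plin1, Cidec and Fabp4 had counts in all 12 libraries, so RNA of fat cells was present in every one. Of the other adipocyte markers, Retn and Lpl had counts in all 12 too. Lep had 0 counts in irradiated DE2 replicate 1 and 4 in replicate 2. Per kilobase of annotated exon, Cfd had the highest mean level of the members in each of the 4 groups, at 932 CPM per kb in untreated WT, 641 in irradiated WT, 1594 in untreated DE2 and 630.5 in irradiated DE2. Of these markers, only Lpl was higher in untreated DE2 than in untreated WT by edgeR with the filter on low counts. Without that filter, edgeR also called Retn, Cfd and Plin1 there. With UVB in DE2, Adipoq, Cfd, Plin1, Cidec and Lpl fell, while Lep, Retn and Fabp4 did not pass. Which cells the called changes come from was not tested. In bulk skin, fewer fat cells and less RNA per fat cell cannot be told apart.

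In untreated skin, 9 of the 35 members tested were higher in DE2 than in WT and 0 were lower. The 9 were Pnpla2, Lpl, Cd36, Aqp7, Gpd1, Lpin1, Dgat2, Me1 and Slc2a4. That is 25.7% of the members, against 11.8% of all genes tested that were higher and 11.2% that were lower. The member median was 0.77 on the log2 scale, against 0.03 over all genes. With UVB in DE2 skin, 19 members fell and 0 rose, 54.3% against 13.4% of all genes that fell and 14.4% that rose. The member median was -1.29, against 0.02. All 9 members that were higher in untreated DE2 were among these 19. Cidea, a relative of the droplet protein Cidec, gave 1.11 ± 0.41 with UVB in DE2 and did not pass (adjusted p = 0.0574), but was called higher by DESeq2, by limma voom, with only the libraries compared, with total counts, and without irradiated WT replicate 2 or 3.

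In WT skin, 0 of 35 members passed with UVB by edgeR, while 0.0198% of all genes rose and 0% fell. The member median was -0.36, against 0.03 over all genes, with 25 members below 0 and 10 above. At an unadjusted p under 0.05, 0 members were higher and 1, Pck1, was lower, against 4.56% of all genes in either direction. DESeq2 and limma voom also called 0 members, and without a filter on low counts edgeR called 2, both lower. In irradiated skin, 1 member, Dgat1, was higher in DE2 than in WT, 2.86% against 2.35% of all genes, which is a share near the background. Lower there were 0 members and 0.608% of all genes. By the interaction, 5 members had a lower UVB log2 fold change in DE2 than in WT: Pnpla2, Lpl, Cd36, Aqp7 and Slc2a4. That is 14.3%, against 4.84% of all genes, and the opposite sign was called for 0 members and 5.64% of all genes.

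**Figure D1:**
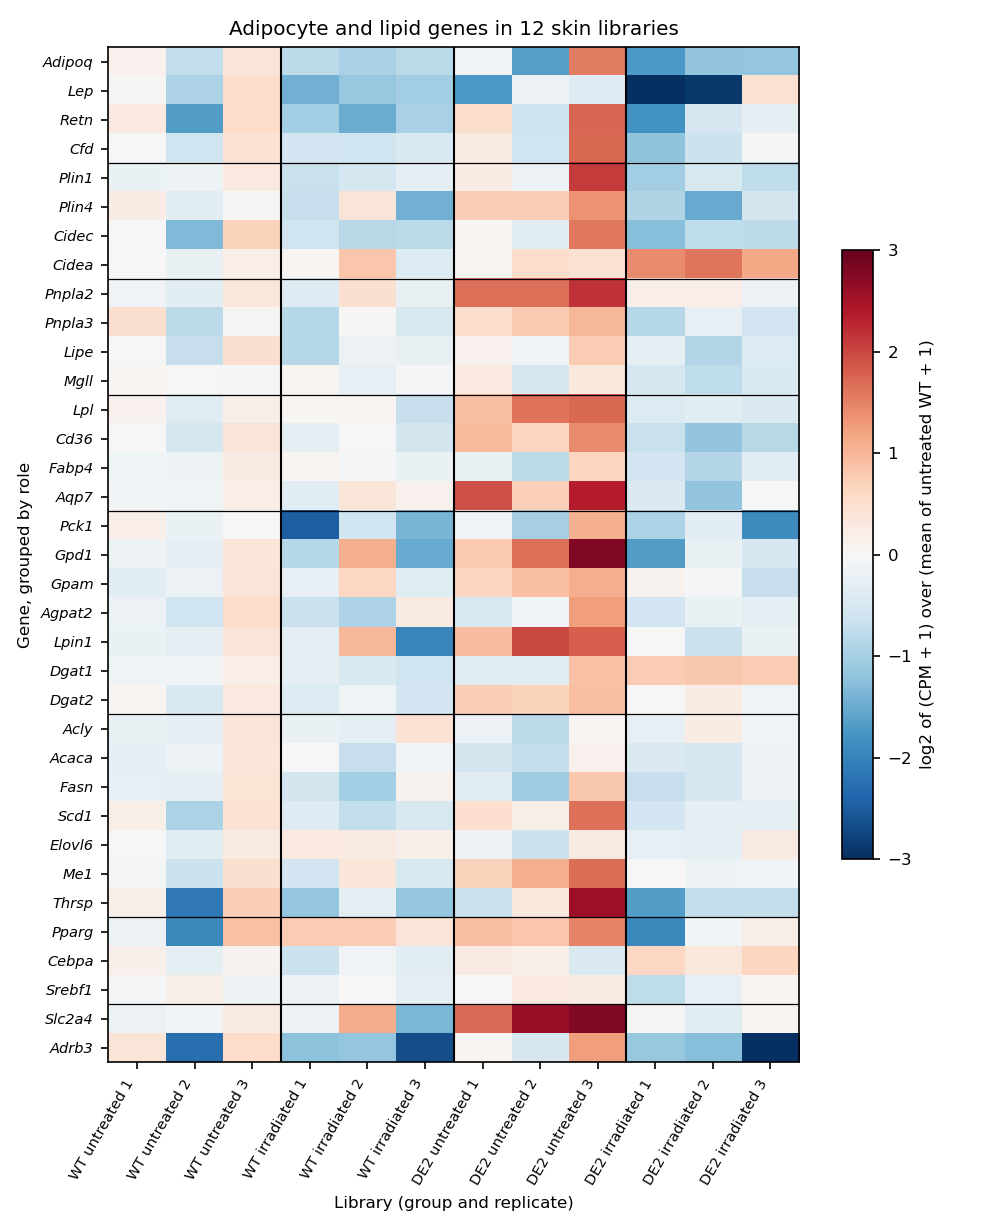
Level of each member in each of the 12 libraries, as the log2 of CPM + 1 over the mean CPM + 1 of untreated WT, with genes ordered by role (vertical axis) and libraries by group (horizontal axis); red is higher and blue lower, and the colours end at 3 in either direction. Untreated DE2 replicate 3 holds the highest value of the 12 libraries for 27 of the 35 members tested.

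The untreated libraries were uneven. Untreated DE2 replicate 3 was the highest of its own group for 30 of 35 members, and untreated WT replicate 3 was the highest of its group for 29. Without untreated DE2 replicate 3, the members lower with UVB in DE2 dropped from 19 to 9, with 1 higher, and those higher in untreated DE2 from 9 to 5. Without irradiated DE2 replicate 1 or 2, 11 and 12 members were lower with UVB. Over the 12 fits that left out 1 library, 2979 to 4622 of all genes were called with UVB in DE2, against 4202 with all libraries. Without untreated WT replicate 1 or 2, 4 and 3 members were higher in untreated DE2. Without untreated WT replicate 2, calls over all genes in either direction fell there too, from 3477 to 2108. Without untreated WT replicate 1 or 2 or irradiated DE2 replicate 2, the interaction called 3 members in place of 5. Over all genes, the interaction calls fell from 1585 to 878 without untreated WT replicate 2. Testing without a filter on low counts gave 16 members higher in untreated DE2, adding Retn, Cfd, Plin1, Plin4, Pnpla3, Scd1 and Thrsp.

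Scaling by total counts, with no correction for composition, left 4 members higher in untreated DE2: Pnpla2, Lpl, Aqp7 and Slc2a4. The calls of Cd36, Gpd1, Lpin1, Dgat2 and Me1 were lost there, with Cd36 at 0.63 (adjusted p = 0.0753). Under that scaling all genes split into 788 higher and 3011 lower in untreated DE2, against 1782 and 1695 with TMM. For UVB in DE2 it gave 15 members lower, without Cfd, Mgll, Gpam and Dgat2, and 2 higher, Cidea and Dgat1. All genes then split into 2712 higher and 1368 lower, against 2180 and 2022. In the interaction it lost Aqp7 and called Dgat1 with the opposite sign, and all genes split into 1220 higher and 368 lower, against 853 and 732. Limma voom lost 5 of the 19 members called with UVB in DE2, namely Adipoq at -1.31 (adjusted p = 0.126), Cfd at -1.10 (0.0752), Plin1 at -1.52 (0.0682), Cidec at -1.40 (0.0571) and Thrsp at -1.82 (0.145), and lost Aqp7 in the interaction. Cfd was also lost with RLE scaling (adjusted p = 0.051), and Cfd and Mgll with only the libraries compared. Mgll was lost without a filter, and, with Aqp7 in the interaction, without irradiated WT replicate 2 and untreated DE2 replicate 1 together. Between the untreated genotypes, some fits also added calls. Limma voom added Plin4, Pnpla3 and Gpam, DESeq2 added Gpam and Scd1, and the libraries compared alone added Plin4. Leaving out untreated DE2 replicate 2 added Plin1 and Scd1, and leaving out irradiated WT replicate 2 added Plin4 and Gpam. With that library and untreated DE2 replicate 1 both left out, Plin4, Gpam, Scd1 and Thrsp were added.

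Of the 4 secreted products of fat cells, 2 fell with UVB in DE2. With the filter on low counts, 0 differed between genotypes at either site by edgeR, also 0 at an unadjusted p under 0.05. Without that filter, edgeR called Retn and Cfd between the untreated genotypes. Adipoq (ENSMUSG00000022878, chr16:23146536-23158028, plus strand) encodes adiponectin, the hormone made almost only by fat cells. Its levels were 139.5, 75.0 and 166 CPM in untreated WT, 72.9, 64.2 and 71.5 in irradiated WT, 119, 39.3 and 377 in untreated DE2, and 37.8, 55.7 and 55.8 in irradiated DE2. The untreated DE2 libraries spanned a wider range than any other group, with 1 of them lower than every irradiated WT library, and overlapped irradiated DE2. Adipoq fell by 1.84 ± 0.57 with UVB in DE2 (adjusted p = 0.0285), and the difference between genotypes in untreated skin was 0.49 ± 0.55 (adjusted p = 0.566). Adipoq lost the call without untreated DE2 replicate 3, or irradiated DE2 replicate 1, 2 or 3, with values from -0.69 to -1.94 and adjusted p from 0.072 to 0.253.

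Cfd encodes adipsin, a complement protease secreted by fat. Its levels were 847, 564 and 1166 CPM in untreated WT, 573, 569 and 630.3 in irradiated WT, 1022, 566 and 2821 in untreated DE2 and 369, 547 and 828 in irradiated DE2. The 2 DE2 groups overlapped, and the change of -1.34 ± 0.47 with UVB in DE2 lay at the threshold (adjusted p = 0.0496). Cfd lost it without untreated DE2 replicate 3, irradiated DE2 replicate 1 or 2, untreated WT replicate 1, 2 or 3, or irradiated WT replicate 1 or 3, with values from -0.47 to -1.34 and adjusted p from 0.0564 to 0.396.

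Lep encodes leptin, the satiety hormone, and was scarce. It had 13.9, 6.76 and 20.2 CPM in untreated WT, 4.38, 5.66 and 6.08 in irradiated WT, 3.41, 11.9 and 10.3 in untreated DE2 and 0, 0.968 and 19.0 in irradiated DE2. The 0 of irradiated DE2 replicate 1 allows up to 0.816 CPM, counting error only. The irradiated DE2 libraries thus ran from the lowest to almost the highest value of the 12. With UVB in DE2 the change was -0.41 ± 1.03 (adjusted p = 0.808). The fit without irradiated DE2 replicate 3 called Lep with UVB in DE2. Retn, which encodes resistin, gave -1.60 ± 0.60 with UVB in DE2 (adjusted p = 0.065) and passed in no comparison. It was called there by DESeq2, without a filter, with only the libraries compared, and without untreated WT or untreated DE2 replicate 2. Without a filter it was also called with UVB in WT.

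Among the droplet coat genes, 3 of 4 fell with UVB in DE2. Plin1 encodes perilipin 1, which shields the droplet from lipases in fat cells. Its levels were 14.4, 14.9 and 20.6 CPM in untreated WT, 10.1, 11.3 and 13.7 in irradiated WT, 19.5, 14.7 and 74.7 in untreated DE2 and 7.62, 11.6 and 9.48 in irradiated DE2. Each irradiated group lay below the untreated group of its genotype without overlap, but only DE2 passed, with -1.92 ± 0.52 (adjusted p = 0.0123). Plin1 lost this call without untreated DE2 replicate 3, or irradiated DE2 replicate 1, with values from -0.85 to -1.71 and adjusted p from 0.0582 to 0.154. In WT the change was -0.51 ± 0.50 (adjusted p = 1), and the interaction of -1.41 ± 0.71 did not pass (adjusted p = 0.228).

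Plin4, a perilipin of fat and also of muscle, had 32.2, 21.7 and 27.9 CPM in untreated WT, 16.4, 36.2 and 9.43 in irradiated WT, 45.8, 46.4 and 71.4 in untreated DE2 and 14.1, 8.95 and 18.2 in irradiated DE2. Untreated DE2 held the 3 highest of the 12 values. With UVB in DE2 it fell by 2.00 ± 0.43 (adjusted p = 0.00345). The span of Plin4 overlaps Hdgfl2 on the opposite strand, and no source used here gives the strand setting of the counting. Reads from any stretch that the pair shares may therefore not be told apart, and overlap of exons was not examined. The same holds for Mgll, Lipe, Gpd1, Me1, Agpat2, Srebf1 and 6 other members whose span overlaps a gene on the other strand.

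Cidec promotes the fusion of droplets into the single large one of white fat. It had 87.9, 34.5 and 142 CPM in untreated WT, 58.1, 48.7 and 49.9 in irradiated WT, 91.6, 70.7 and 266 in untreated DE2 and 35.6, 51.8 and 51.0 in irradiated DE2. The untreated DE2 libraries all lay above irradiated DE2, replicate 3 by the most, and the change with UVB was -1.63 ± 0.50 (adjusted p = 0.0269). Cidec lost this call without untreated DE2 replicate 3, or irradiated DE2 replicate 1, 2 or 3, with values from -0.83 to -1.73 and adjusted p from 0.0666 to 0.177. Its relative Cidea, known from brown fat and sebaceous glands, had 7.67, 13.8 and 5.17 CPM in irradiated WT and 21.2, 24.0 and 17.5 in irradiated DE2, which do not overlap, but the difference of 1.23 ± 0.41 did not pass (adjusted p = 0.142).

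Of the 4 lipolysis genes, 3 fell with UVB in DE2, and 1 was also higher in untreated DE2, with the lowest adjusted p of any member in that comparison. Pnpla2 (ENSMUSG00000025509, chr7:141455198-141460743, plus strand) encodes adipose triglyceride lipase, which takes the initial step of triglyceride breakdown in fat and muscle. Its levels were 115, 99.7 and 155 CPM in untreated WT, 94.5, 174 and 106 in irradiated WT, 393, 389 and 555 in untreated DE2 and 141, 141 and 109 in irradiated DE2. Untreated DE2 lay above all 9 other libraries, and the other 3 groups overlapped each other. Pnpla2 was 3.61-fold higher in untreated DE2 than in untreated WT (1.85 ± 0.26 on the log2 scale, adjusted p = 0.000164). It fell by 1.77 ± 0.26 with UVB in DE2 (adjusted p = 0.000189), while WT changed by 0.01 ± 0.25 (adjusted p = 1). The interaction was -1.79 ± 0.36 (adjusted p = 0.00626).

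Pnpla3, a related lipase, had 65.5, 26.6 and 47.7 CPM in untreated WT, 25.2, 47.7 and 33.1 in irradiated WT, 68.0, 81.2 and 93.9 in untreated DE2 and 25.3, 39.2 and 31.0 in irradiated DE2. It fell by 1.34 ± 0.32 with UVB in DE2 (adjusted p = 0.00666). Mgll encodes monoglyceride lipase, which releases the last fatty acid. Its levels were 165, 159 and 155 CPM in untreated WT, 169, 134 and 152 in irradiated WT, 197, 112 and 199 in untreated DE2 and 111, 93.2 and 117 in irradiated DE2. It fell by 0.66 ± 0.21 with UVB in DE2 (adjusted p = 0.0315), although untreated DE2 replicate 2 lay within the irradiated range. Mgll lost the call without untreated DE2 replicate 1 or 3, irradiated DE2 replicate 1, 2 or 3, untreated WT replicate 1, 2 or 3, or irradiated WT replicate 3, with values from -0.54 to -0.73 and adjusted p from 0.0546 to 0.12. Lipe, hormone-sensitive lipase, gave -0.85 ± 0.36 and did not pass (adjusted p = 0.0971).

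**Figure D2:**
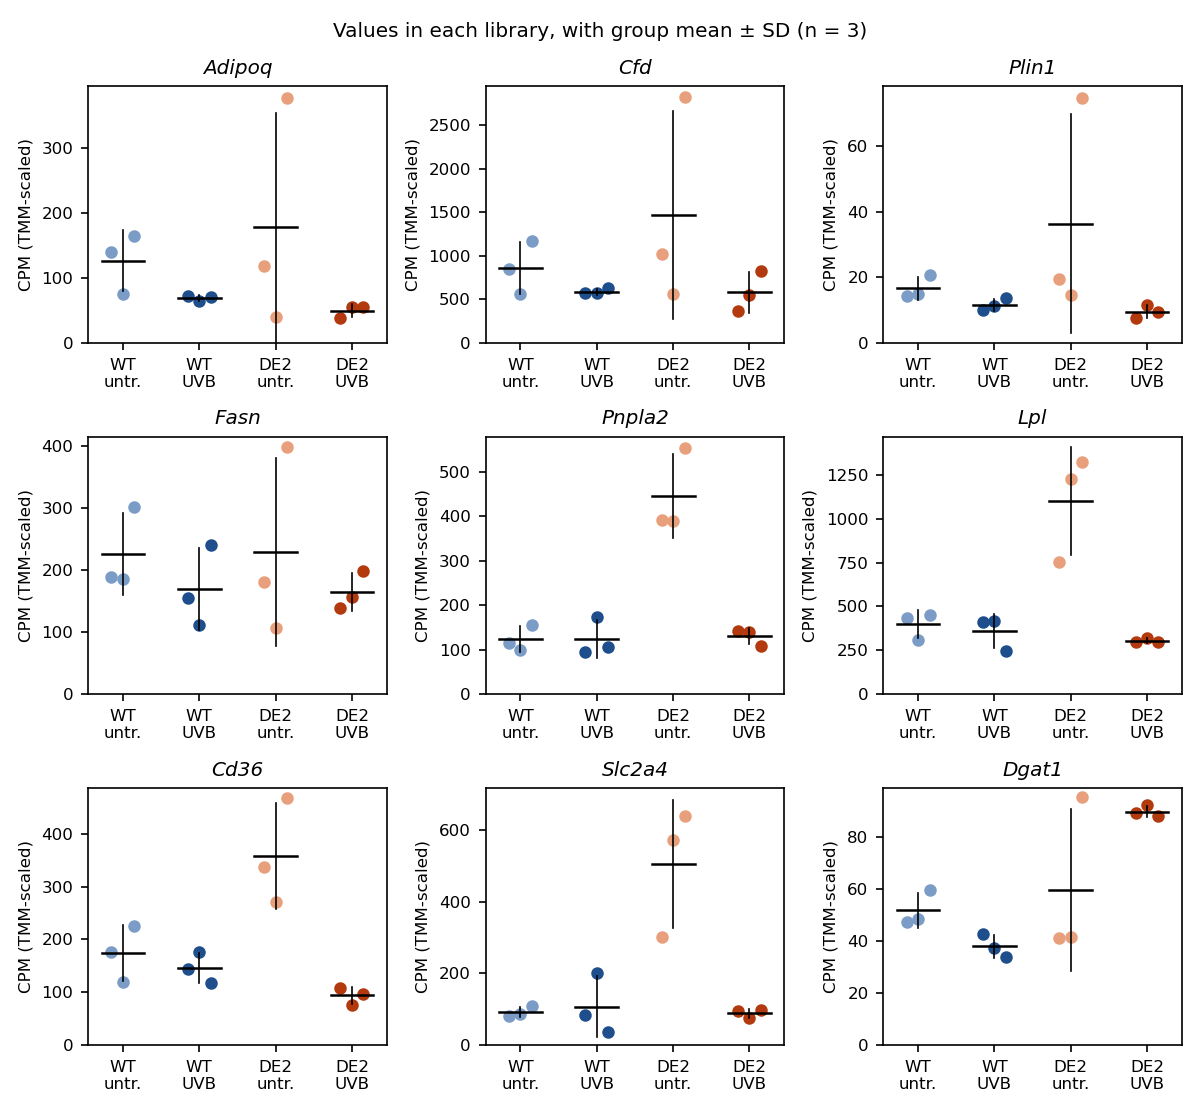
CPM of 9 members (vertical axis, from 0) in the 4 groups, with 1 point per library, a horizontal line at the group mean and a vertical bar of ± 1 SD (n = 3), which ends at the axis where it would pass below 0. Pnpla2, Lpl, Cd36 and Slc2a4 show untreated DE2 above the 9 other libraries, while the 3 untreated DE2 libraries of Adipoq spread from 39.3 to 377 CPM.

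Fatty acid and glycerol transport had 3 of its 4 members among the 5 interaction calls. Lpl (ENSMUSG00000015568, chr8:68880491-68907448, plus strand) encodes lipoprotein lipase, which frees fatty acids at the capillary wall. Its levels were 435, 309 and 453 CPM in untreated WT, 414, 415 and 247 in irradiated WT, 753, 1229 and 1327 in untreated DE2 and 299, 321 and 296 in irradiated DE2. Here too, untreated DE2 held the 3 highest values. Lpl was 2.76-fold higher in untreated DE2 (1.47 ± 0.26, adjusted p = 0.00124) and fell by 1.85 ± 0.26 with UVB in DE2 (adjusted p = 0.000168). The interaction was -1.70 ± 0.37 (adjusted p = 0.00968), with -0.15 ± 0.26 in WT (adjusted p = 1).

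Cd36 (ENSMUSG00000002944, chr5:17781690-17888801, minus strand) encodes a fatty acid transporter of fat, muscle, endothelium and macrophages. Its levels were 176, 119 and 225 CPM in untreated WT, 145, 176 and 117 in irradiated WT, 337, 271 and 467 in untreated DE2 and 109, 76.2 and 97.3 in irradiated DE2. The untreated DE2 libraries were the 3 highest and the irradiated DE2 libraries the 3 lowest of the 12. Cd36 was 2.06-fold higher in untreated DE2 (1.05 ± 0.26, adjusted p = 0.0101). Cd36 lost this call without untreated WT replicate 2, where it was 0.76 (adjusted p = 0.0791). With UVB in DE2 it fell by 1.93 ± 0.27 (adjusted p = 0.000129), the lowest adjusted p of any member in any of the 5 comparisons. The interaction was -1.68 ± 0.37 (adjusted p = 0.0109).

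Aqp7 (ENSMUSG00000028427, chr4:41033074-41048139, minus strand) encodes the channel through which fat cells release glycerol. It had 4.79, 4.66 and 6.04 CPM in untreated WT, 3.84, 6.89 and 5.78 in irradiated WT, 22.7, 9.05 and 30.6 in untreated DE2 and 3.54, 1.69 and 5.10 in irradiated DE2. These are low levels, and untreated DE2 was above the rest without overlap. Aqp7 was higher in untreated DE2 by 2.00 ± 0.53 (adjusted p = 0.0147), fell by 2.61 ± 0.56 with UVB there (adjusted p = 0.00341), and had an interaction of -2.70 ± 0.77 (adjusted p = 0.0381). Aqp7 lost the interaction call without untreated DE2 replicate 3, irradiated DE2 replicate 1 or 2, untreated WT replicate 1, 2 or 3, or irradiated WT replicate 2 or 3, with values from -2.34 to -2.75 and adjusted p from 0.0542 to 0.116. The genotype call in untreated skin was lost without untreated DE2 replicate 3, or untreated WT replicate 1 or 2, with values from 1.65 to 1.88 and adjusted p from 0.0643 to 0.0823.

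Fabp4, the fatty acid carrier of fat cells and capillary endothelium, passed in no comparison. The fit without untreated DE2 replicate 2 called Fabp4 with UVB in DE2. It had 561, 557 and 732 CPM in untreated WT, 648, 596 and 538 in irradiated WT, 540.1, 351 and 969.7 in untreated DE2 and 416, 333 and 498 in irradiated DE2. Every irradiated DE2 library lay below every WT library of either site. The difference between genotypes in irradiated skin was -0.51 ± 0.30 (adjusted p = 0.466).

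Of the triglyceride assembly genes, 3 of 7 were higher in untreated DE2 and 4 fell with UVB in DE2. Gpd1 encodes the glycerol phosphate dehydrogenase that supplies the backbone. Its levels were 53.1, 47.5 and 75.5 CPM in untreated WT, 32.1, 126 and 20.1 in irradiated WT, 103, 188 and 410.1 in untreated DE2 and 17.7, 50.3 and 40.8 in irradiated DE2. Irradiated WT replicate 2, the WT library with the highest muscle share, exceeded untreated DE2 replicate 1. Gpd1 was higher in untreated DE2 by 1.99 ± 0.63 (adjusted p = 0.0354) and fell by 2.68 ± 0.65 with UVB there (adjusted p = 0.00773). Gpd1 lost the genotype call without untreated DE2 replicate 2 or 3, irradiated DE2 replicate 3, or untreated WT replicate 1, 2 or 3, with values from 1.34 to 2.16 and adjusted p from 0.0507 to 0.181.

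Lpin1 encodes lipin 1, the phosphatidate phosphatase of fat and muscle. It had 44.4, 41.2 and 66.9 CPM in untreated WT, 41.1, 103 and 12.2 in irradiated WT, 97.5, 204 and 179 in untreated DE2 and 50.9, 32.4 and 44.1 in irradiated DE2. The same irradiated WT library again reached the untreated DE2 range. Lpin1 was higher in untreated DE2 by 1.65 ± 0.53 (adjusted p = 0.0377), and fell by 1.92 ± 0.54 with UVB there (adjusted p = 0.0172). Lpin1 lost the genotype call without untreated DE2 replicate 2 or 3, irradiated DE2 replicate 1, 2 or 3, or untreated WT replicate 1, 2 or 3, with values from 1.44 to 1.82 and adjusted p from 0.0507 to 0.142. It lost the UVB call without untreated DE2 replicate 2 or 3, or irradiated DE2 replicate 2 or 3, with values from -1.73 to -1.95 and adjusted p from 0.0541 to 0.0747.

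Dgat2 and Dgat1 encode the enzymes of the last step, and different comparisons called them. Dgat2 had 215, 149 and 250.1 CPM in untreated WT, 155, 186 and 138 in irradiated WT, 341, 324 and 386 in untreated DE2 and 206, 239 and 191 in irradiated DE2. It was highest in untreated DE2 (0.78 ± 0.21 against untreated WT, adjusted p = 0.0139) and fell by 0.73 ± 0.21 with UVB there (adjusted p = 0.0163). Dgat2 lost the genotype call without untreated WT replicate 1 or 2, with values from 0.51 to 0.74 and adjusted p from 0.0588 to 0.119, and the UVB call without untreated DE2 replicate 3, or irradiated DE2 replicate 1 or 3, with values from -0.65 to -0.67 and adjusted p from 0.0514 to 0.0786.

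Dgat1 (ENSMUSG00000022555, chr15:76502015-76511953, minus strand) had 47.2, 48.5 and 59.4 CPM in untreated WT, 42.7, 37.1 and 33.8 in irradiated WT, 41.2, 41.6 and 95.3 in untreated DE2 and 89.0, 92.0 and 87.8 in irradiated DE2. The 3 irradiated DE2 libraries lay within 87.8 to 92.0 CPM, above every WT library, and untreated DE2 replicate 3 was the one library higher. Dgat1 was 2.36-fold higher in irradiated DE2 than in irradiated WT (1.24 ± 0.29, adjusted p = 0.031). The call was lost without any 1 of the 6 irradiated libraries, with an adjusted p of up to 0.116. Between the irradiated groups, 3 of 8 keratinocyte markers were also higher in DE2, 37.5% against 2.35% of all genes. Together they took 2.09 to 2.67% of counts there against 0.559 to 0.776% in irradiated WT. Across untreated DE2 they did not follow Dgat1. Replicate 3, with 95.3 CPM of Dgat1, had a share of 0.524%, and replicate 1, with 41.2 CPM, had 1.26%. The part of keratinocytes in the result was not tested.

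Gpam encodes the acyltransferase that adds the initial fatty acid to the glycerol backbone. It had 18.3, 20.3 and 30.4 CPM in untreated WT, 19.2, 35.7 and 17.6 in irradiated WT, 36.3, 43.6 and 50.01 in untreated DE2 and 25.0, 22.5 and 13.9 in irradiated DE2. It fell by 1.07 ± 0.34 with UVB in DE2 (adjusted p = 0.0293). Gpam lost this call without untreated DE2 replicate 2 or 3, or irradiated DE2 replicate 2 or 3, with values from -0.86 to -1.15 and adjusted p from 0.0618 to 0.113. Agpat2 and Pck1 passed in no comparison, but without a filter edgeR called Pck1 with UVB in each genotype. Pck1, an enzyme of glycerol synthesis in fat cells, had 38.5, 28.9 and 33.4 CPM in untreated WT and 5.21, 21.9 and 12.2 in irradiated WT, which do not overlap, yet its change of -1.35 ± 0.55 had an adjusted p of 1 and an unadjusted p of 0.0279.

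Of the 7 fatty acid synthesis genes, 3 fell with UVB in DE2 and 1 of them was higher in untreated DE2. Acly, Acaca, Fasn and Elovl6, which build the carbon chain, passed in none of the 5 comparisons. Fasn encodes fatty acid synthase and had 189, 186 and 302 CPM in untreated WT, 155, 111 and 241 in irradiated WT, 181, 106 and 399 in untreated DE2 and 138, 157 and 199 in irradiated DE2. All 4 groups overlapped. The difference between genotypes in untreated skin was 0.02 ± 0.40 (adjusted p = 0.98) and the change with UVB in DE2 was -0.48 ± 0.40 (adjusted p = 0.419).

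Scd1, Me1 and Thrsp fell with UVB in DE2. Scd1 encodes the desaturase that makes oleate. It had 643, 294 and 776 CPM in untreated WT, 435, 342 and 411 in irradiated WT, 812, 647 and 1785 in untreated DE2 and 381, 471 and 476 in irradiated DE2. It fell by 1.29 ± 0.37 (adjusted p = 0.0174), and its genotype difference in untreated skin did not pass (0.92 ± 0.37, adjusted p = 0.0833). That difference was called by DESeq2, without a filter, and without untreated DE2 replicate 2. It was also called without irradiated WT replicate 2 and untreated DE2 replicate 1 together. Scd1 lost the UVB call without untreated DE2 replicate 3, or irradiated DE2 replicate 1, with values from -0.74 to -1.13 and adjusted p from 0.0836 to 0.115.

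Me1, malic enzyme, supplies NADPH for synthesis. It had 137, 92.0 and 201 CPM in untreated WT, 96.7, 185 and 102 in irradiated WT, 232, 305 and 459.8 in untreated DE2 and 144, 130.0 and 136 in irradiated DE2. The untreated DE2 libraries were the 3 highest. It was higher in untreated DE2 by 1.21 ± 0.31 (adjusted p = 0.0125) and fell by 1.28 ± 0.32 with UVB there (adjusted p = 0.00745). Me1 lost the genotype call without untreated DE2 replicate 3, or untreated WT replicate 1 or 2, with values from 0.89 to 1.10 and adjusted p from 0.0595 to 0.0848.

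Thrsp encodes a protein tied to lipogenesis. It had 45.9, 8.62 and 70.0 CPM in untreated WT, 18.1, 33.5 and 17.9 in irradiated WT, 25.8, 53.2 and 251 in untreated DE2 and 12.2, 24.7 and 24.8 in irradiated DE2. The 3 untreated DE2 values spanned nearly the whole range of the gene, and the change with UVB was -2.42 ± 0.79 (adjusted p = 0.0352). Thrsp lost this call without untreated DE2 replicate 3, irradiated DE2 replicate 1, 2 or 3, or untreated WT replicate 1, with values from -0.96 to -2.58 and adjusted p from 0.0504 to 0.333.

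The transcription factors passed in no comparison. Without a filter, edgeR called Pparg with UVB in DE2 and in the interaction. The fit without irradiated DE2 replicate 3 called Srebf1 with UVB in DE2. Pparg had 7.84, 1.63 and 17.5 CPM in untreated WT, 15.9, 16.0 and 12.2 in irradiated WT, 17.5, 16.7 and 27.0 in untreated DE2 and 1.63, 8.47 and 10.2 in irradiated DE2. The irradiated DE2 libraries lay below untreated DE2 without overlap, but the change of -1.60 ± 0.68 had an adjusted p of 0.0952. Cebpa had 11.8, 17.5 and 14.9 CPM in irradiated WT and 29.4, 24.2 and 29.9 in irradiated DE2, again without overlap, with a difference of 0.91 ± 0.31 (adjusted p = 0.148). Srebf1, the regulator of lipogenic genes, changed by -0.48 ± 0.21 with UVB in DE2 (adjusted p = 0.114).

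Slc2a4 (ENSMUSG00000018566, chr11:69942539-69948188, minus strand) encodes GLUT4, the insulin-responsive glucose transporter of fat and muscle. Its levels were 81.0, 86.7 and 109 CPM in untreated WT, 83.6, 201 and 35.3 in irradiated WT, 303, 573 and 640.4 in untreated DE2 and 94.4, 74.1 and 96.6 in irradiated DE2. Untreated DE2 lay above all other libraries, and irradiated WT spread most widely among the other 3 groups. Slc2a4 was 5.48-fold higher in untreated DE2 than in untreated WT (2.45 ± 0.47, adjusted p = 0.00266), the largest fold of the 9 members called there. It fell by 2.52 ± 0.47 with UVB in DE2 (adjusted p = 0.00179), with an interaction of -2.73 ± 0.65 (adjusted p = 0.0186). Slc2a4 lost the interaction call without untreated DE2 replicate 3, irradiated DE2 replicate 2, or untreated WT replicate 1 or 2, with values from -2.56 to -2.62 and adjusted p from 0.0516 to 0.0545. Adrb3, the adrenergic receptor that starts lipolysis in fat, passed in no comparison and gave -2.31 ± 0.86 with UVB in DE2 (adjusted p = 0.0573). It was called there by DESeq2, without a filter, with only the libraries compared, and without untreated WT replicate 2. Ucp1 had 2 counts in all, 1 in each of untreated DE2 replicates 2 and 3.

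**Figure D3:**
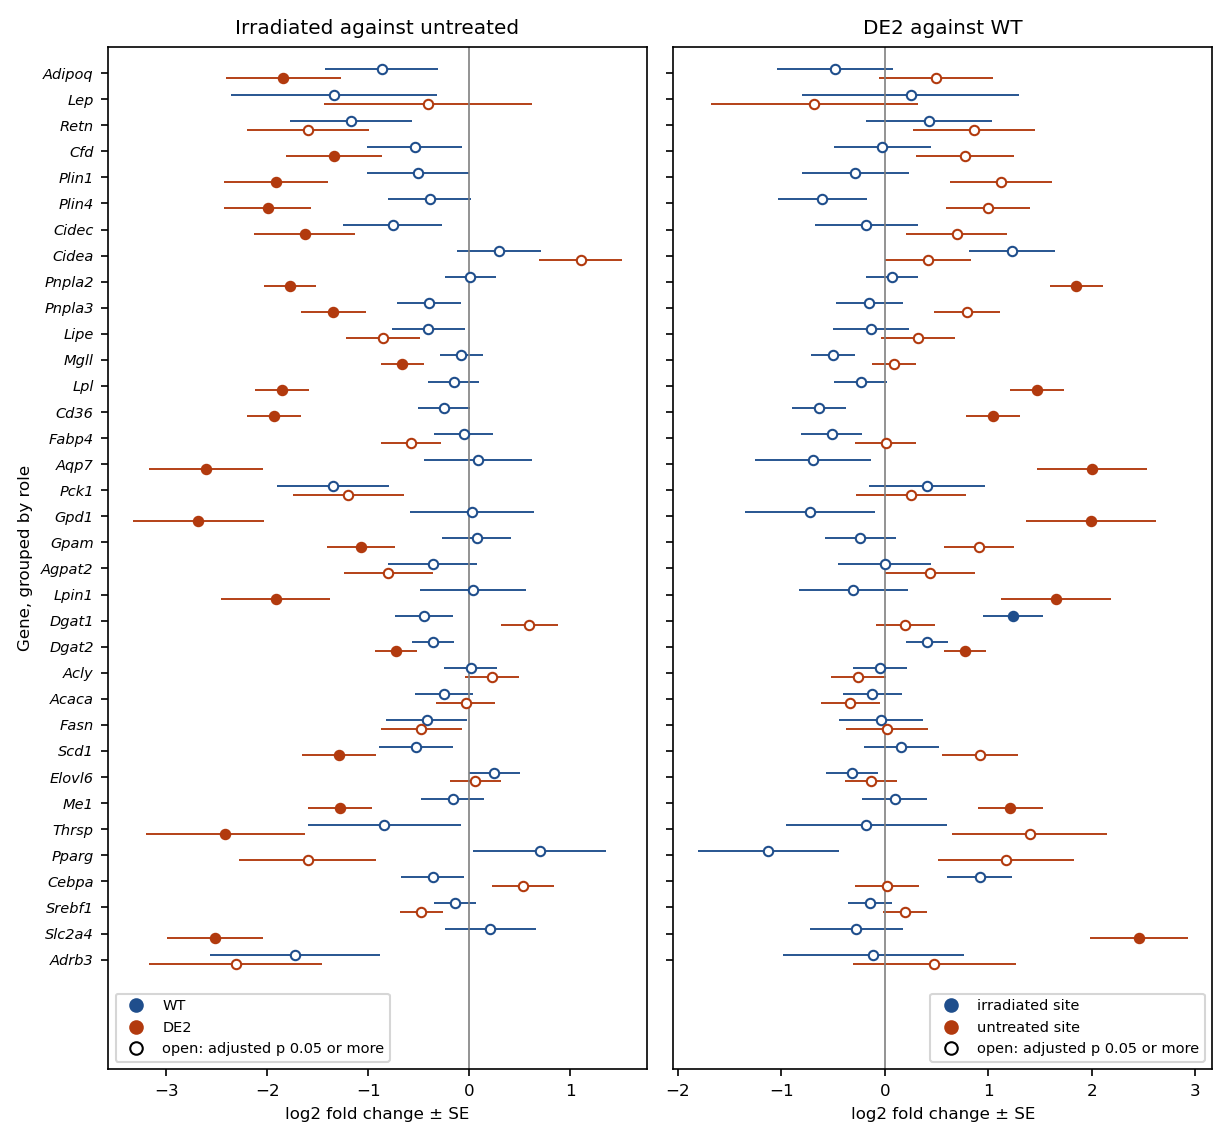
Log2 fold change (horizontal axis) of each member with its approximate standard error as a bar, for irradiated against untreated skin in each genotype (left) and DE2 against WT at each site (right); filled points have an adjusted p under 0.05. The 19 members that fell with UVB in DE2 include the 9 that were higher in untreated DE2, and no member passed with UVB in WT.

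Muscle marker content was set beside the members. The muscle share in irradiated WT was 3.66, 7.35 and 1.81%. There, 13 of the 35 members were highest in replicate 2 and lowest in replicate 3, the order of that share. The reverse order was found for 5. The share of all genes in either order was not counted, so these counts do not show a trait of the members. The 13 were Plin4, Cidea, Lpl, Cd36, Gpd1, Gpam, Lpin1, Dgat2, Thrsp, Pparg, Srebf1, Slc2a4 and Adrb3. They include all but Pnpla2, Aqp7 and Me1 of the 9 members higher in untreated DE2. In irradiated WT, Pnpla2, Aqp7 and Me1 were also highest in replicate 2, but lowest in replicate 1. With the log2 muscle share as a covariate in the fit, 1 member remained higher in untreated DE2, Pnpla2 at 1.36 (adjusted p = 0.0113). In DE2, 1 member was lower with UVB, Cd36, and the interaction called 0 by edgeR. The fitted interaction values were then -1.23 for Pnpla2 (adjusted p = 0.0924), -0.96 for Lpl (0.144), -1.19 for Cd36 (0.144), -2.45 for Aqp7 (0.236) and -0.59 for Slc2a4 (0.325). With that covariate the untreated genotype difference of Gpd1 was -0.08 and that of Lpin1 -0.34, opposite in sign to the values without it. In that fit 573 of all genes were still called between the untreated genotypes, 69 higher and 504 lower, against 1782 and 1695 without the covariate, and 68.3% of the variance of the muscle share lay between the groups.

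**Figure D4:**
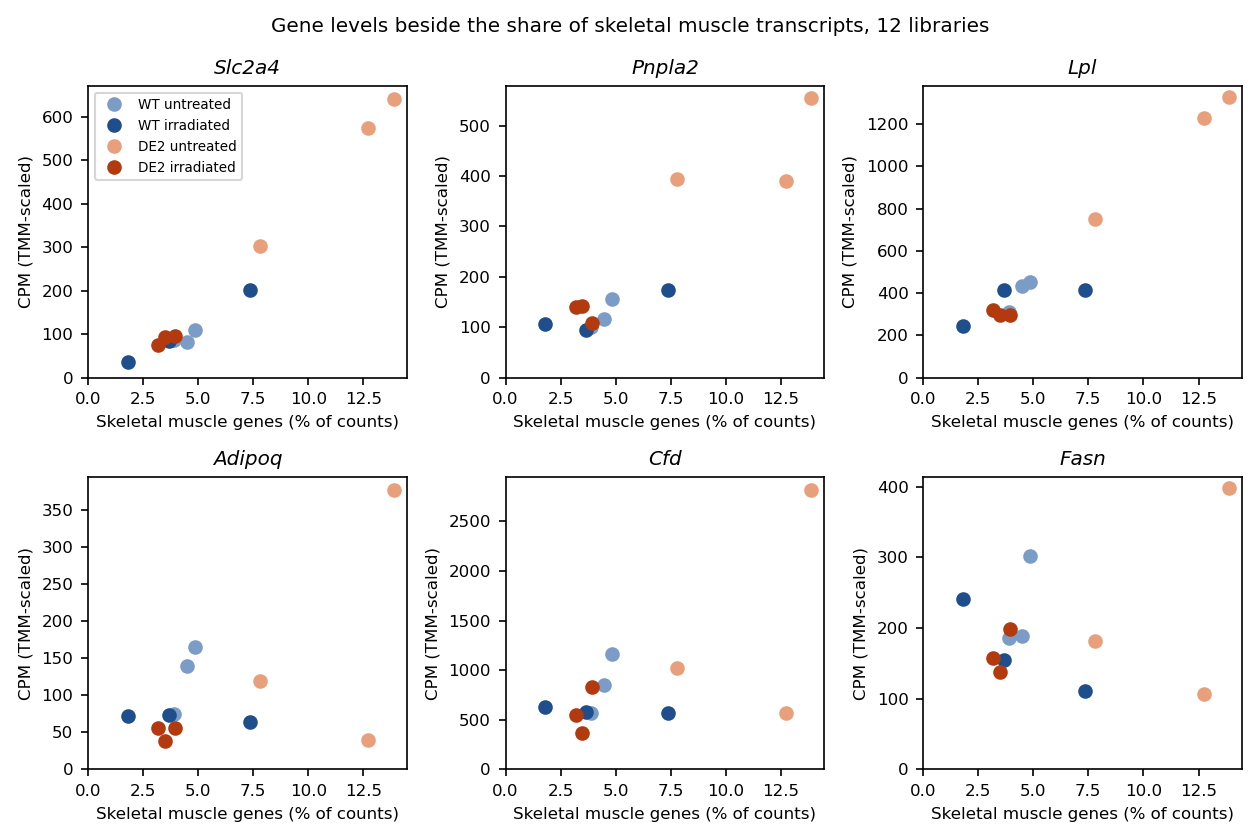
Share of all counts in the skeletal muscle markers (percent, horizontal axis) against CPM of 6 members (vertical axis), both from 0, with 1 point per library, coloured by group. The 3 untreated DE2 libraries, at 7.79 to 13.9%, lie to the right of all others, and irradiated WT replicate 2, at 7.35%, lies closest to them.

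Other genes of the fat cell, from a list of 32 tested, included 8 that were higher and 0 lower in untreated DE2. That is 25% higher, against 11.8% of all genes, and 0% lower, against 11.2%. With UVB in DE2, 10 fell, 31.2% against 13.4% of all genes, and 1 rose, 3.12% against 14.4%. This list took 0.829, 1.02 and 1.37% of counts in untreated DE2, 0.467 to 0.681% in untreated WT, and 0.398, 0.765 and 0.295% in irradiated WT, again in the order of the muscle share; the part of muscle in these counts was not tested. Acsl1, which activates fatty acids in fat and muscle, was higher in untreated DE2 by 1.54 ± 0.29 (adjusted p = 0.00167), as were the adiponectin receptor Adipor1 (1.18 ± 0.27, adjusted p = 0.0064) and the growth hormone receptor Ghr (0.95 ± 0.24, adjusted p = 0.0122). With UVB in DE2, Ghr fell by 1.61 ± 0.25 (adjusted p = 0.000353), the fatty acid transporter Slc27a1 fell by 1.43 ± 0.24 (adjusted p = 0.000618) and Car3, a carbonic anhydrase, fell by 2.25 ± 0.47 (adjusted p = 0.00293). The 1 gene of this list higher in irradiated DE2 than in irradiated WT was G0s2, an inhibitor of the lipase encoded by Pnpla2, with 16.4, 18.2 and 14.0 CPM in irradiated WT and 97.9, 90.8 and 83.5 in irradiated DE2. Those values do not overlap (2.48 ± 0.37, adjusted p = 0.00214), but 1 of 32 is 3.12% of the list, near the 2.35% of all genes higher in that comparison.

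Of 18 adipocyte differentiation factors tested, 6 were higher and 0 lower in untreated DE2, 33.3 and 0% against 11.8 and 11.2% of all genes. With UVB in DE2, 5 fell, 27.8% against 13.4% of all genes, and 1 rose, 5.56% against 14.4%. Klf15, known from fat and muscle, was higher in untreated DE2 by 2.07 ± 0.34 (adjusted p = 0.000704) and fell by 2.26 ± 0.35 with UVB there (adjusted p = 0.00031). Mlxipl, the glucose-responsive factor of lipogenesis, was higher there by 1.84 ± 0.37 (adjusted p = 0.00284) and fell by 2.05 ± 0.38 (adjusted p = 0.00115). Cebpb, an early factor of fat cell differentiation also induced in inflammation, was the 1 that rose with UVB in DE2, from 107, 120.3 and 124 to 263, 232 and 274 CPM (1.13 ± 0.19, adjusted p = 0.000561).

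Fatty acid oxidation, which burns what storage releases, had 13 of 21 genes higher and 1 lower in untreated DE2. That is 61.9 and 4.76%, against 11.8 and 11.2% of all genes. With UVB in DE2, 15 fell, 71.4% against 13.4% of all genes, and 2 rose, 9.52% against 14.4%. The dehydrogenases Acadl (1.42 ± 0.24, adjusted p = 0.000969) and Acadvl (1.58 ± 0.27, adjusted p = 0.00106) were among the 13. With UVB in WT, 0 genes of these 3 lists passed by edgeR. At an unadjusted p under 0.05, 6 other fat cell genes were lower and 1 differentiation factor was higher, beside 4.56% of all genes in either direction. These oxidation genes are also expressed by muscle, whose marker share is given above, and the part of muscle in these counts was not tested.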

How the data were processed

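Bulk RNA from mouse skin was measured in 12 libraries, 3 in each of 4 groups taken from the sample labels. The values the authors deposited are whole-number read counts for each Ensembl gene, made with Trimmomatic 0.39, Picard 3.1.0, SAMtools 1.16 and HTSeq 2.0.2 on GRCm38, per the submitters' processing notes. The aligner, annotation release, strand setting and duplicate handling were not given in the sources used here. Reads from stretches shared by genes of opposite strands may therefore not be separable. Symbols and positions came from GENCODE M21 on the same build, which named 53360 of 53465 identifiers. Every row held an Ensembl mouse gene identifier.

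The analysis used edgeR 4.0.16 in R 4.3.3. A filter on low counts over the 4 groups left 15126 genes, libraries were TMM scaled, and a robust quasi-likelihood model with 1 mean per group left 8 residual degrees of freedom. The biological coefficient of variation was 35.8%. Total counts of 2809142 to 4741726 per library limit the precision for genes of a few CPM. The alternatives were RLE scaling, total counts, no filter or a stricter one, DESeq2 1.42.0, voom in limma 3.58.1, the compared libraries alone, a covariate for muscle markers or hair follicle markers, and leaving out libraries. The script was tested on simulated data. No 2 libraries of a group agreed within sampling noise.

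The members and all lists were chosen with earlier results of these data known. Text values are given for each member past the threshold, for Adipoq, Plin1, Lep, Fabp4, Fasn, Scd1 and Pparg, and for at most 3 genes with the lowest p of a list in a comparison; other members named, and the Cidea, Cebpa and Pck1 values, were chosen after their values were seen. Of 200 other list genes, Krt85 had no match.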

Additional observations from a re-analysis of the deposited data

Results flagged for a closer look

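For 5 members the effect of UVB differed between genotypes by the interaction test of edgeR. The difference of the UVB log2 fold change, DE2 minus WT, was -1.79 for Pnpla2, -1.70 for Lpl, -1.68 for Cd36, -2.70 for Aqp7 and -2.73 for Slc2a4. The adjusted p-values were 0.00626, 0.00968, 0.0109, 0.0381 and 0.0186. In each of the 5, the 3 untreated DE2 libraries were the highest of the 12. Groups of 3 are too small for a test of outlying libraries.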

How the results depend on the processing

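Over the 12 fits that left out 1 library, the members called ranged from 0 to 0 with UVB in WT, 10 to 20 with UVB in DE2, 3 to 11 between untreated genotypes, 0 to 1 between irradiated genotypes and 3 to 7 by the interaction. Of all genes, 0 to 15, 2979 to 4622, 2108 to 3881, 130 to 616 and 878 to 2585 were called in the same order, against 3, 4202, 3477, 448 and 1585 with all libraries. RLE scaling, the stricter filter and limma voom moved no count of calls by over 1.5 times. Scaling by total counts gave 4 members between untreated genotypes and 1 of all genes with UVB in WT. It shifted the median of all genes by -0.40 between untreated genotypes, by 0.24 with UVB in DE2 and by 0.34 in the interaction, and the member median less that of all genes was then 0.69, -1.27 and -0.77. Without a filter, 2 members and 141 genes were called with UVB in WT, 16 members between untreated genotypes, 1031 genes between irradiated genotypes, and 11 members and 2438 genes by the interaction. DESeq2 called 22 genes with UVB in WT and 876 between irradiated genotypes. Fitting only the libraries compared gave 0 genes with UVB in WT and gives no interaction. Without irradiated WT replicate 2 and untreated DE2 replicate 1 together, 19 genes were called with UVB in WT, and 2 members and 754 genes between irradiated genotypes.

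With the muscle covariate, 6 genes were called with UVB in WT, 1 member and 715 genes with UVB in DE2, 1 member and 573 genes between untreated genotypes, 2 members between irradiated genotypes, and 0 members and 349 genes by the interaction. The sign turned for Lpin1 with UVB in DE2 (0.56) and, between untreated genotypes, for Gpd1 (-0.076) and Lpin1 (-0.34). A hair follicle covariate, chosen after seeing the data, had 94.9% of its variance between groups and took nearly all calls with it: 5 genes with UVB in WT, 0 members and 0 genes with UVB in DE2, between untreated genotypes and by the interaction, and 0 members between irradiated genotypes. Its fitted values turned with UVB in DE2 for Cidec (0.046), Pnpla3 (0.32), Lpl (0.058), Gpd1 (1.43), Lpin1 (0.56), Me1 (0.33) and Thrsp (3.53), between untreated genotypes for Lpl (-0.62), Gpd1 (-2.59), Lpin1 (-1.05), Me1 (-0.55) and Slc2a4 (-0.19), and by the interaction for Lpl (0.058). The cause of these moves was not tested. No paired analysis was possible because the labels give no replicate numbers. At these depths, differences of Ucp1, Lep and Aqp7 rest on few reads.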

Other observations

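Of 17 genes of cholesterol synthesis, a lipid pathway outside fat storage, 6 were lower and 0 higher in untreated DE2 than in untreated WT. The lower ones are 35.3%, against 11.2% of all genes, while 11 did not pass. In DE2 skin, 9 rose and 0 fell with UVB, and 8 did not pass. Those that rose are 52.9%, against 14.4% of all genes. Sqle, squalene epoxidase, had 92.1, 128 and 152 CPM in untreated WT, 73.1, 58.0 and 53.6 in untreated DE2 and 231, 225 and 177 in irradiated DE2. Its difference in untreated skin, DE2 minus WT, was -1.01 ± 0.21 and its change with UVB in DE2 was 1.78 ± 0.21 (edgeR adjusted p = 0.00348 and 3.46e-05). Hair follicle markers moved the same way in these libraries, and their part in the result was not tested.

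Of 10 brown and beige fat genes, 3 were higher and 2 lower in untreated DE2, 30 and 20% against 11.8 and 11.2% of all genes. Cox8b and Cox7a1, respiratory subunits of brown fat and of muscle, were higher by 2.00 ± 0.33 and 2.07 ± 0.37 (edgeR adjusted p = 0.000708 and 0.00138). Elovl3, a fatty acid elongase of brown fat that is also made in sebaceous glands and hair follicles, gave -4.22 ± 0.46 (edgeR adjusted p = 1.66e-05). Its levels were 62.9, 67.8 and 172 CPM in untreated WT and 7.31, 6.79 and 1.94 in untreated DE2, without overlap. Elovl3 and Soat1 were the 2 of 10 sebaceous gland markers that were lower there, 20% against 11.2% of all genes.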
